A study of Mus musculus and Homo sapiens with 43 samples.

Results

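Neural progenitor cells (NPC) made from mouse embryonic stem cells with 2 different alterations of 1 Polycomb gene were compared: Phc1 knock-out (Phc1 KO) against a knock-out of the SAM domain of Phc1 (Phc1-SAM KO). The values are those of the 2 Phc1 KO and the 2 Phc1-SAM KO NPC libraries, as log2(TPM + 1), where TPM is the share of a gene in all transcripts of a library, set to a fixed total and corrected for gene length. Genes entered where at least 2 of the 4 libraries held at least 1 TPM, which left 14701 of the 32231 genes listed. Differences between the genotypes were not used to choose them, though a gene silent in 1 genotype entered through its level in the other. Every difference below is Phc1 KO minus Phc1-SAM KO, so a positive value means a higher level in Phc1 KO.

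All cells came from E14, a mouse embryonic stem cell (ESC) line, edited with CRISPR/Cas9. ESC were kept with LIF, 1 µM PD0325901 and 3 µM CHIR99021, and NPC were made through embryoid bodies and then 5 µM retinoic acid without those factors. The series holds 43 samples, of which 24 are RNA-seq libraries, and 8 of these are the Phc1 KO and Phc1-SAM KO libraries of both stages, 2 per group. Both groups carry an altered Phc1 and neither is an unedited control, and the labels give neither the extent of the deletions nor the number of clones behind a group.

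Phc1 encodes a subunit of canonical Polycomb repressive complex 1 (PRC1), which binds chromatin carrying the histone H3 methylation mark laid down by PRC2 and keeps developmental genes silent. The SAM domain at the carboxy-terminal end of Phc proteins self-associates into polymers, and through it distant PRC1-bound regions gather into compact domains and loops. Setting loss of Phc1 against loss of the SAM domain therefore asks whether cells without the protein differ from cells that may keep a protein unable to polymerise.

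Phc1 transcripts stood at 109 and 106 TPM in Phc1 KO NPC and at 103 and 111 TPM in Phc1-SAM KO NPC, a log2 difference of 0.01 ± 0.05 (SE; adjusted p = 0.91, limma). The 2 groups overlapped, and the sign of this difference turned under both other scalings tried. WT NPC, from the separately normalized other table, held 99.7 and 94.4 TPM of Phc1. Levels summed over a whole gene cannot show a small deletion or a frameshift, so these values check neither label. Phc2 and Phc3, the paralogs that can take the place of Phc1 in PRC1, also overlapped between the groups, at 93.6 to 99.7 TPM and 6.21 to 7.22 TPM. In ESC, Phc1 was lower in Phc1 KO, at 150.2 and 151.5 against 266 and 247 TPM, with a log2 difference of -0.76 (adjusted p = 4.1e-05), and Phc2 was higher.

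The NPC label was checked against marker lists. Nanog, a core pluripotency factor, stood at 254 and 249.6 TPM in Phc1 KO NPC and at 178 and 182 TPM in Phc1-SAM KO NPC, and the WT NPC of the other deposited table held 1.94 and 2.11 TPM. Transcripts of the 22 pluripotency genes summed to 3675 to 4192 TPM in the 4 knock-out libraries against 54.8 and 60.3 TPM in WT NPC. The neural progenitor list summed to less than in WT, to 658 to 933 TPM against 1618 and 1947 TPM, and Fabp7 and Hes5 were near 0. In ESC the same list summed to 1498 and 1504 TPM in Phc1 KO and to 870 and 836 TPM in Phc1-SAM KO. Its sums therefore show no gain over ESC, but they rest largely on Vim and Sox2, which are not restricted to neural cells. Vim stood at 1131 and 1153 TPM in Phc1 KO ESC and at 438 and 411 TPM in Phc1-SAM KO ESC. In NPC it stood at 497 and 509 TPM and at 340 and 318 TPM. The sums thus do not show whether the other members of the list rose. Anterior Hox genes summed to 400 to 426 TPM in the 4 knock-out NPC libraries, against 23.0 to 42.2 TPM in ESC of both genotypes. In WT NPC they summed to far more, 1872 and 1979 TPM. All 4 NPC libraries thus carried many pluripotency transcripts beside Hox transcripts. The 2 tables were normalized separately, so WT levels are set beside the others throughout as a description with no test. In such bulk libraries, fewer cells of a type and less RNA per cell cannot be told apart.

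Between the genotypes, 713 genes were called at an adjusted p under 0.05, which is 4.85% of the genes tested: 448 were higher in Phc1 KO (3.05%) and 265 were lower (1.8%). Most of these differences were small. The median size among called genes was 0.40 on the log2 scale against 0.13 over all genes tested, 502 called genes differed by under 1.5-fold, and 70 differed by at least 2-fold, 33 of them higher and 37 lower. The split by direction moved with the scaling: median-of-ratios scaling gave 273 higher and 329 lower, and quantile normalization 306 and 324. Replicate libraries correlated across genes at 0.992 in Phc1 KO and 0.988 in Phc1-SAM KO, and libraries of different genotype at 0.985 to 0.987. All 713 calls lacked overlap between the genotypes, as did 55.5% of the genes tested, so separate groups add nothing to a call and are not repeated gene by gene. The counts for gene lists below are to be read against the 3.05% and 1.8% of all genes. The number of calls rested on all 4 libraries, since leaving out 1 at a time left 91 and 75 calls without Phc1 KO replicates 1 and 2, and 189 and 177 without Phc1-SAM KO replicates 1 and 2.

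**Figure D1:**
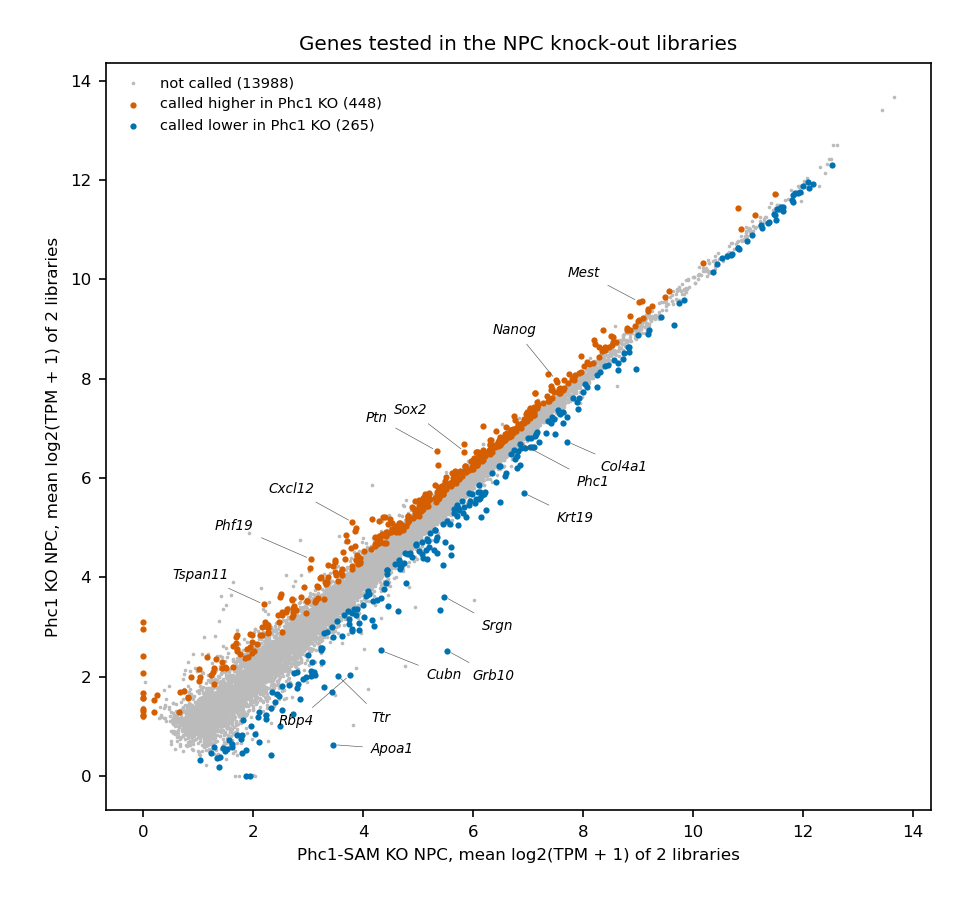
Mean log2(TPM + 1) of the 2 Phc1 KO NPC libraries (vertical) against that of the 2 Phc1-SAM KO NPC libraries (horizontal), 1 point per gene tested. The 448 genes called higher in Phc1 KO are orange, the 265 called lower blue and the rest grey; most called genes lie close to the diagonal, and Grb10, Apoa1, Cubn and Srgn lie farthest below it among the labelled genes.

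Called genes had start regions of contrasting kinds. Those of Grb10, Apoa1 and Cubn, among the largest falls, and of Sox2, a smaller rise, are printed here because Polycomb complexes are recruited mainly to regions dense in CG dinucleotides. Each window runs from 250 bases before to 50 bases after a gene's start (RefSeq, GRCm38.p6), with CG dinucleotides in capitals. Grb10 (chr11:12037371-12037670, minus strand) and Sox2 (chr3:34649745-34650044, plus strand) start in windows with 45 and 27 CG dinucleotides, and Apoa1 (chr9:46228380-46228679, plus strand) and Cubn (chr2:13491827-13492126, minus strand) in windows with 4 and 5. Grb10 has a second annotated start (chr11:12027922-12028221, minus strand) whose window holds 9, and gene levels do not show which start was in use.
Grb10: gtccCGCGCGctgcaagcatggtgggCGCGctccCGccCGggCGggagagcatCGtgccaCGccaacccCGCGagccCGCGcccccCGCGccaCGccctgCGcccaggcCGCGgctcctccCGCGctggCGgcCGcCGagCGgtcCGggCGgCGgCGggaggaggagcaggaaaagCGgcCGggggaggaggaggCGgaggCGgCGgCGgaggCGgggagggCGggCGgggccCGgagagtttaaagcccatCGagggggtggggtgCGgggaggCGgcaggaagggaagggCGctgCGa
Sox2: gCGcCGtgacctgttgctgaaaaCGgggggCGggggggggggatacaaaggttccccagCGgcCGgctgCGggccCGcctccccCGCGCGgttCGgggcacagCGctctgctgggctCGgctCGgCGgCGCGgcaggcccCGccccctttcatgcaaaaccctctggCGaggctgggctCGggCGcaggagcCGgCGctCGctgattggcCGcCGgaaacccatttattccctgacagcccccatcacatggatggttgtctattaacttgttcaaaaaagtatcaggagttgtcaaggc
Apoa1: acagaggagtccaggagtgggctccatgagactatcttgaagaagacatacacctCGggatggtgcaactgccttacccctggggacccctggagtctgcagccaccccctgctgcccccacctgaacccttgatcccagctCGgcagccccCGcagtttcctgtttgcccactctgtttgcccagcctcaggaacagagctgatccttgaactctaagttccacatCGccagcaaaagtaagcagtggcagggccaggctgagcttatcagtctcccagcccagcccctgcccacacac
Cubn: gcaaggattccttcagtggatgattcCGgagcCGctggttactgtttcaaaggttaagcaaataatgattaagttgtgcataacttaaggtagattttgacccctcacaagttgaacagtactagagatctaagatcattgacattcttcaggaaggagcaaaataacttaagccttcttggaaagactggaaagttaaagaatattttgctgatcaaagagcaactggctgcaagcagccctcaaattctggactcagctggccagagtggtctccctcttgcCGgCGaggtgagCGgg
Grb10, Apoa1 and Cubn were lower in Phc1 KO NPC and Sox2 was higher. Windows were found for 10466 of the 14701 genes tested, with a median of 20 CG dinucleotides over their 13421 windows. The median per window was 21 for genes called higher and 16 for genes called lower. For called genes that differed by at least 2-fold it was lower in both directions: 7 for the 15 genes with a window that were higher and 9 for the 25 that were lower. The letters TATAAA, read on both strands, occurred in 10 of the 34 windows of genes at least 2-fold lower (29.4%). They occurred in 0 of the 21 windows of those at least 2-fold higher, against 7.14% of the windows of all genes tested. TATAAA had the widest contrast of several letter patterns counted, and the windows are few. In the lower and the higher set, AGATAA occurred in 11.8% and 14.3% of windows, ATTGTT in 2.94% and 14.3%, and TGTTTAC in 5.88% and 0%. These shares are a description of the letters in these windows.

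Grb10 had the largest NPC difference of the genes named here on the log2 scale, which understates changes of low genes. By ratio of TPM, Apoa1 differed more, with means of 0.55 TPM in Phc1 KO NPC and 10.02 TPM in Phc1-SAM KO NPC. Prl2c2 was listed at 0 in Phc1 KO NPC against a mean of 2.66 TPM in Phc1-SAM KO NPC. Apoa1 and Prl2c2 entered the NPC test through Phc1-SAM KO alone and could be called there only as falls. Grb10 encodes an adaptor that dampens insulin and growth factor signalling and is imprinted, with the parental copy in use depending on tissue. Its level was 4.68 and 4.84 TPM in Phc1 KO NPC and 45.7 and 44.6 TPM in Phc1-SAM KO NPC, a log2 difference of -3.00 ± 0.09 (adjusted p = 0.0001), and WT NPC held 398 and 382 TPM. Replicates were close together, and Phc1 KO stood below both other groups. In ESC the same gene stood at 16.9 and 19.9 against 17.2 and 18.1 TPM, so Phc1 KO cells held less Grb10 as NPC than as ESC while Phc1-SAM KO cells held more. The contrast differed between the stages by -3.06 on the log2 scale (adjusted p = 2e-05). Of its neighbours on chromosome 11, named after their values were seen, Ddc was higher in Phc1 KO NPC, at 31.4 and 35.5 against 25.4 and 23.1 TPM (adjusted p = 0.028), and Fignl1 and Cobl were not called.

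The other imprinted genes that were called went the opposite way. Of 24 tested, 6 were higher in Phc1 KO NPC and Grb10 alone was lower, with a list median of 0.16 against 0.05 over all genes. Mest, the paternally expressed gene for a hydrolase-like protein, stood at 754 and 748 TPM against 505 and 521 TPM (log2 difference 0.55 ± 0.03, adjusted p = 0.001). Nnat, which encodes neuronatin, stood at 133 and 132 against 71.8 and 71.4 TPM (0.88 ± 0.09, adjusted p = 0.0052). Igf2, the insulin-like growth factor, stood at 762 and 755 against 541 and 528 TPM (0.50 ± 0.06, adjusted p = 0.0064), and Cdkn1c, a maternally expressed Cdk inhibitor, was higher by 0.39 (adjusted p = 0.043). Grb10 and Mest kept their calls without any 1 library; without 1 library at a time the adjusted p of Nnat lay between 0.041 and 0.064, that of Igf2 between 0.048 and 0.081 and that of Cdkn1c between 0.14 and 0.26.

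Endoderm genes had the highest share of falls among the gene lists examined. Of the 23 tested from a list of 28, 17 were lower in Phc1 KO NPC and 0 higher, beside 1.8% of all genes called lower, and 22 of the 23 differences were negative. The list median was -0.98 against 0.05 over all genes tested. Members and lists were chosen with earlier results of these data known, so these shares are a description. The list holds markers of definitive and extra-embryonic endoderm, the layers that give gut, liver and yolk sac and that appear beside neural cells in embryoid bodies. It also holds broader matrix genes, among them Sparc, which is the 1 gene of the fibroblast list called lower. Summed over the list, transcripts stood at 632 and 646 TPM in Phc1 KO against 928 and 968 TPM in Phc1-SAM KO. The sums do not overlap, and WT NPC lay between them at 770 and 686 TPM. Sparc, Col4a1 and Col4a2, whose levels are given below, made up most of the knock-out sums and of the gap between them.

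Secreted and absorptive proteins of endoderm showed the largest falls. Apoa1, the main protein of high-density lipoprotein, stood at 0.654 and 0.451 TPM in Phc1 KO and at 9.04 and 11.0 TPM in Phc1-SAM KO (log2 difference -2.83 ± 0.17, adjusted p = 0.0011). Cubn, the endocytic receptor cubilin of visceral endoderm and kidney, stood at 4.93 and 4.63 against 19.0 and 18.9 TPM (-1.79 ± 0.11, adjusted p = 0.0011). Ttr, the thyroxine carrier transthyretin, stood at 2.88 and 3.23 against 10.5 and 10.8 TPM (-1.52 ± 0.13, adjusted p = 0.0031). In each of the 3 genes the Phc1-SAM KO libraries were several times the Phc1 KO libraries, and WT NPC sat nearer Phc1 KO for Apoa1 and Cubn (2.27 and 2.41, and 1.22 and 1.20 TPM) but nearer Phc1-SAM KO for Ttr (11.1 and 8.79 TPM). Afp, the fetal serum protein alpha-fetoprotein, stood at 0.486 and 0.729 against 4.72 and 2.26 TPM, with Phc1-SAM KO replicates that differed from each other (-1.43 ± 0.27, adjusted p = 0.036, limma). Apoa1 and Afp were under 1 TPM in both Phc1 KO libraries. They entered the test through Phc1-SAM KO alone and could be called only as falls.

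Transcription factors and basement membrane genes of the same list were lower too. Sox17, a specifier of endoderm, stood at 6.03 and 7.43 against 12.7 and 15.8 TPM (-0.98 ± 0.15, adjusted p = 0.02). Foxa2, a pioneer factor of endoderm and floor plate, stood at 3.39 and 2.73 against 7.48 and 7.04 TPM (-1.03 ± 0.16, adjusted p = 0.019). Gata4, which acts in extra-embryonic endoderm and heart, stood at 11.1 and 10.4 against 19.5 and 16.8 TPM (-0.70 ± 0.11, adjusted p = 0.019). By contrast Gata6, at 55.8 and 61.7 against 46.95 and 52.95 TPM, and Foxa1, at 17.3 and 18.4 against 19.1 and 20.9 TPM, were not called (adjusted p = 0.3 and 0.5). Lama1, a laminin chain that parietal endoderm secretes into its basement membrane, stood at 18.7 and 17.1 against 41.8 and 43.5 TPM (-1.21 ± 0.12, adjusted p = 0.0044), and Sparc, a matrix protein, stood at 269.7 and 266 against 297 and 309 TPM (adjusted p = 0.04). The other called members, listed to complete the count, were Apob, Apoc2, Hnf4a, Sox7, Dab2, Lamb1, Col4a1 and Col4a2. Col4a1 and Col4a2, which encode the paired type IV collagen chains, stood at 102 and 109 against 199 and 219 TPM and at 43.0 and 46.4 against 89.2 and 88.5 TPM.

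The count of 17 dropped to 7 and 5 without Phc1 KO replicates 1 and 2 and to 7 without either Phc1-SAM KO replicate, with 0 called higher each time. Apoa1, Cubn and Ttr passed in every one of these fits. Lama1 reached an adjusted p of 0.052 in 1 of them, and Sox17, Foxa2, Gata4 and Sparc passed in none, at 0.053 to 0.21. Afp passed in 1 of 4. In ESC, 11 members were tested, of which 5 were higher in Phc1 KO and 0 lower, beside 33.9% and 14.4% of all genes there. Among them, Col4a2 stood at 33.5 and 36.5 TPM in Phc1 KO ESC against 6.99 and 7.85 TPM in Phc1-SAM KO ESC, and these Phc1 KO ESC libraries also held more fibroblast transcripts, given with the stage comparison.

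**Figure D2:**
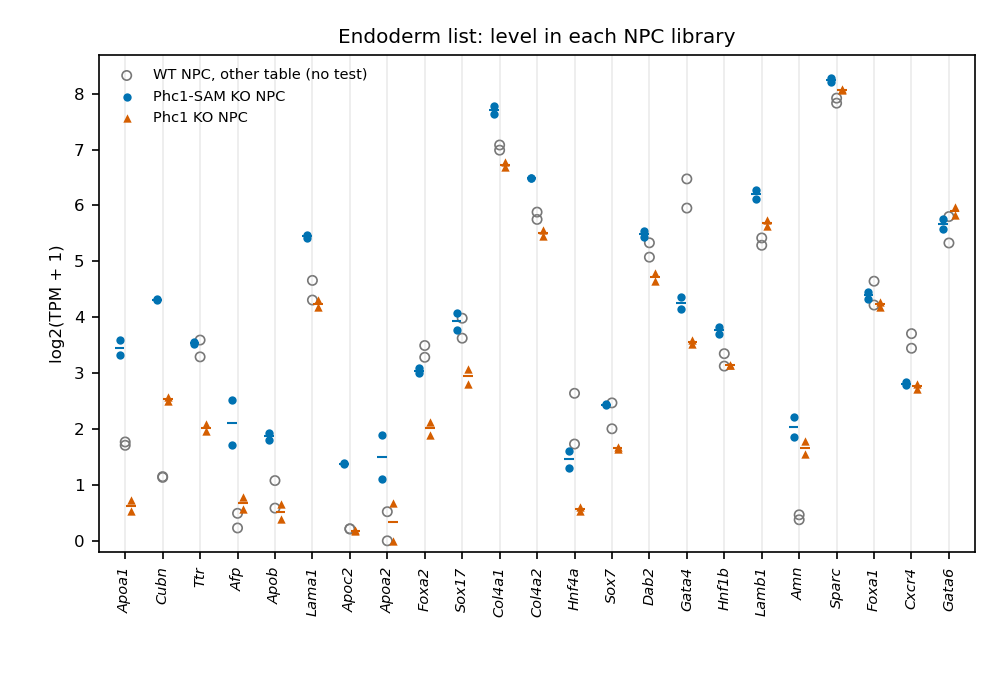
Level, as log2(TPM + 1), of the 23 tested endoderm genes in each NPC library: Phc1-SAM KO (blue circles), Phc1 KO (orange triangles) and, from the separately normalized other table, WT (open circles); dashes mark group means of 2 libraries. Apoa1 to Sox17 on the left show the widest gaps between the genotypes, and Gata6 on the right is the 1 gene with a higher mean in Phc1 KO.

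Genes outside that list with large falls were of mixed kinds. Rbp4, the plasma carrier of retinol, stood at 2.82 and 3.35 TPM in Phc1 KO against 12.2 and 12.7 TPM in Phc1-SAM KO (-1.73 ± 0.13, adjusted p = 0.0022). Krt19, a keratin of simple epithelia, stood at 47.1 and 55.4 against 128 and 112 TPM (-1.21 ± 0.11, adjusted p = 0.0042). Cited1, a transcriptional co-activator, stood at 7.01 and 7.25 against 17.9 and 16.7 TPM (-1.17 ± 0.09, adjusted p = 0.0023). Each of these genes stayed called without any 1 library. Srgn, the granule proteoglycan serglycin, stood at 10.7 and 11.8 against 42.0 and 45.0 TPM (-1.86 ± 0.25, adjusted p = 0.012), and Ctsh, a lysosomal cysteine protease, stood at 2.09 and 2.41 against 7.77 and 12.4 TPM (-1.74 ± 0.24, adjusted p = 0.015). Both lost their calls in at least 3 of the 4 fits without 1 library, at adjusted p of up to 0.10 and 0.11. The remaining large falls were Clic6 (-1.47), Crygd (-1.28), B4galnt2 (-1.09) and Zfyve21 (-1.15), of which Zfyve21 kept its call in every such fit and the others in none.

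Of 14 epithelial genes tested, 5 were lower in Phc1 KO NPC and 1 higher, beside 1.8% and 3.05% of all genes, with a median of -0.34. Krt18 and Krt8, the partner keratins of simple epithelia, stood at 164 and 168 against 247 and 233 TPM and at 138 and 137 against 203 and 190.4 TPM, with log2 differences of -0.52 each (adjusted p = 0.0052 and 0.0065). Cldn4, a tight-junction protein, stood at 97.6 and 98.1 against 134 and 141 TPM (-0.48 ± 0.05, adjusted p = 0.0054). Both keratins are also on the trophectoderm list, where 2 of 10 were lower and 1 higher. That 1 was Tfap2c, a transcription factor of trophectoderm and germ cells, at 51.02 and 50.01 against 35.1 and 36.3 TPM (0.49 ± 0.07, adjusted p = 0.019). Krt18, Krt8 and Cldn4 passed in 2 of the 4 fits without 1 library, with an adjusted p of up to 0.076 in the rest, and Tfap2c in none, at 0.08 to 0.13.

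Among calls that reached 5 TPM, predicted genes aside, the largest rises in Phc1 KO NPC included signalling and adhesion genes. Cxcl12, the chemokine ligand of the receptor Cxcr4, stood at 34.4 and 32.9 TPM against 13.3 and 12.6 TPM (1.31 ± 0.07, adjusted p = 0.001). Ptn, the heparin-binding growth factor pleiotrophin, stood at 92.1 and 93.3 against 38.7 and 40.1 TPM (1.21 ± 0.07, adjusted p = 0.0011). Socs2, a feedback inhibitor of cytokine signalling, stood at 29.96 and 26.2 against 10.9 and 13.04 TPM (1.17 ± 0.10, adjusted p = 0.0033). These 3 genes kept their calls without any 1 library, as did Tmem176b, a membrane protein, at 35.9 and 34.6 against 17.8 and 16.1 TPM (1.02 ± 0.09, adjusted p = 0.003). WT NPC held 34.9 and 26.3 TPM of Cxcl12 and 113 and 96.1 TPM of Ptn, near the Phc1 KO levels, but 12.3 and 10.8 TPM of Socs2, near the Phc1-SAM KO levels.

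Phf19 had the largest estimate among the rises and a weaker basis. It encodes a PRC2 accessory subunit that reads a methyl mark of active genes, and stood at 17.5 and 22.1 TPM against 6.41 and 8.18 TPM (1.33 ± 0.22, adjusted p = 0.024). It passed in none of the fits without 1 library, where the adjusted p lay between 0.075 and 0.17. WT NPC held 2.42 and 1.61 TPM, below both genotypes. Alcam, a cell adhesion molecule of growing axons, stood at 31.7 and 29.7 against 14.8 and 12.4 TPM (1.12 ± 0.20, adjusted p = 0.032). Shisa3, an attenuator of Wnt and FGF signalling, stood at 30.3 and 28.8 against 13.5 and 13.5 TPM (1.08 ± 0.11, adjusted p = 0.0054). The other rises of this set were Tspan11 (1.26), Diras2 (1.17), Tac2 (1.17), Cntn4 (1.14), Ccdc80 (1.10), Tmem176a (1.03) and Kcnj2 (0.998). Without 1 library at a time Shisa3 passed in 2 of 4 fits and Alcam in none. Of the 14 rises, 4 passed in every fit without 1 library and 7 in none; of the 14 falls, 8 passed in every such fit and 4 in none.

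**Figure D3:**
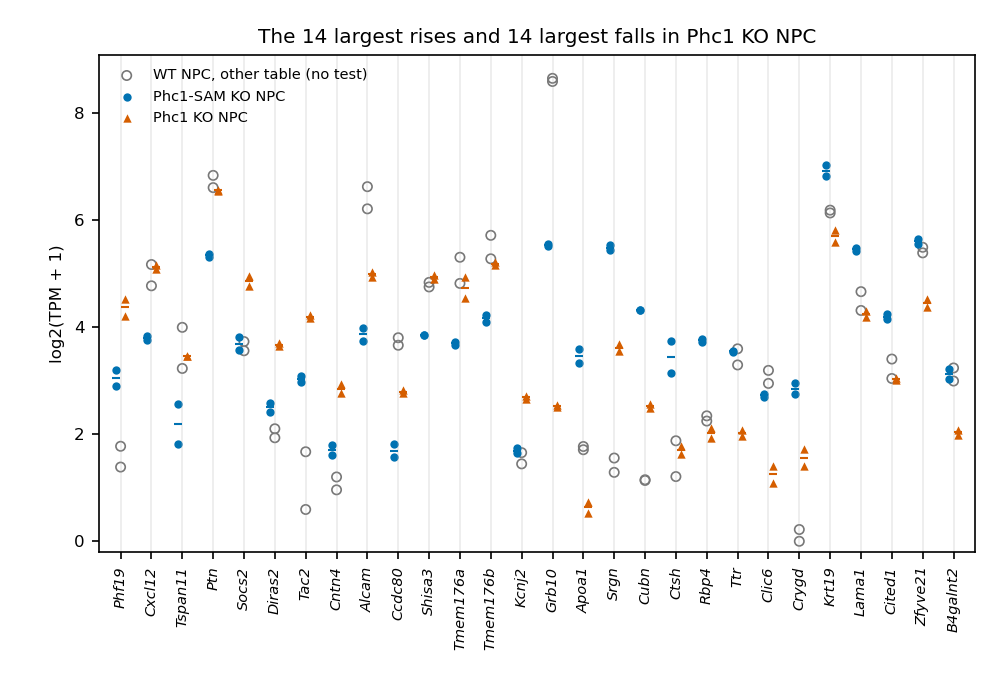
Level, as log2(TPM + 1), in each NPC library of the 14 genes with the largest rises (left) and the 14 with the largest falls (right) among calls whose mean reached 5 TPM in 1 genotype; symbols as in the endoderm plot. Replicates sit close together for Ptn, Grb10 and Cubn and farther apart for Tspan11 and Ctsh, and WT levels fall on either side of the knock-out levels.

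Of 22 pluripotency genes tested, 9 were called higher in Phc1 KO NPC, beside 3.05% of all genes, and 0 lower, while 13 were not called and 5 differences were negative. The list median was 0.21. Nanog, whose values are given above, differed by 0.48 ± 0.03 (adjusted p = 0.001). Klf2, a naive pluripotency factor, stood at 147 and 154 against 104 and 109 TPM (0.49 ± 0.04, adjusted p = 0.0033), and Utf1, a chromatin factor of undifferentiated cells, at 107.5 and 107.8 against 80.7 and 74.8 TPM (0.47 ± 0.05, adjusted p = 0.0045). Prdm14, which restrains differentiation in ESC and germ cells, stood at 10.2 and 10.9 against 7.55 and 6.23 TPM (0.55 ± 0.10, adjusted p = 0.034). Pou5f1, which encodes the factor Oct4, stood at 414 and 422 against 390.4 and 381 TPM and was not called (adjusted p = 0.054). Nanog and Klf2 kept their calls without any 1 library, while Utf1 reached an adjusted p of 0.052 and Prdm14 of 0.20 in such fits; the count of 9 fell to 4 without Phc1 KO replicate 2 and to 6 without Phc1 KO replicate 1 or Phc1-SAM KO replicate 2. Under median-of-ratios scaling the counts were 8 higher and 1 lower.

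In ESC 18 of the 22 were lower in Phc1 KO, beside 14.4% of all genes, and 0 higher, beside 33.9%; these background shares move with the scaling, as given with the stage comparison. Nanog stood at 357 and 354 TPM in Phc1 KO ESC against 537 and 527 TPM in Phc1-SAM KO ESC (-0.58, adjusted p = 9.3e-06), and the contrast differed between the stages by 1.07 on the log2 scale (adjusted p = 1.3e-05). Primed epiblast genes, which mark the state after naive pluripotency, were mixed in NPC, with 1 of 11 higher and 2 lower. Of the lower ones, Otx2 was under 1 TPM in both Phc1 KO libraries. It entered through Phc1-SAM KO alone and could be called only as a fall. Dnmt3b, a de novo DNA methyltransferase, stood at 16.2 and 17.2 against 20.4 and 21.0 TPM (-0.29 ± 0.06, adjusted p = 0.041), and Otx2, a factor of epiblast and forebrain, at 0.425 and 0.396 against 2.31 and 1.39 TPM (-0.997 ± 0.19, adjusted p = 0.039). Neither passed in any fit without 1 library.

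Of 22 neural progenitor genes tested, 4 were higher in Phc1 KO NPC, beside 3.05% of all genes, and 0 lower, with a median of 0.19. Sox2, a factor of both ESC and neural progenitors, stood at 91.0 and 92.5 TPM against 57.2 and 55.5 TPM (0.69 ± 0.04, adjusted p = 0.0011), and WT NPC held 32.8 and 45.0 TPM. Vim, an intermediate filament of progenitors and mesenchyme, stood at 497 and 509 against 340.4 and 318 TPM (0.61 ± 0.04, adjusted p = 0.0016). Slc1a3, a glial glutamate transporter, stood at 10.1 and 11.8 against 5.75 and 5.36 TPM (0.86 ± 0.16, adjusted p = 0.036), and Cdh2, N-cadherin, at 28.8 and 29.3 against 21.9 and 21.6 TPM (0.40 ± 0.07, adjusted p = 0.024). Of these 4, Sox2 and Vim stayed called without any 1 library, while Slc1a3 and Cdh2 lay at 0.099 to 0.21. The more restricted markers Pax6, at 6.496 and 4.75 against 5.07 and 5.20 TPM, and Nes, at 14.3 and 15.8 against 12.6 and 12.5 TPM, were not called (adjusted p = 0.75 and 0.19), and WT NPC held 52.5 and 73.8 TPM of Pax6.

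Among 22 neuronal genes tested, 1 was higher and 1 lower. Tubb3, the neuronal beta-tubulin, stood at 14.2 and 14.1 against 10.7 and 10.6 TPM (0.38 ± 0.06, adjusted p = 0.026), far under the 128 and 196 TPM of WT NPC. Dpysl3, a growth-cone protein, stood at 25.2 and 26.9 against 41.1 and 37.2 TPM (-0.57 ± 0.07, adjusted p = 0.01). Tubb3 passed in none of the fits without 1 library (0.095 to 0.16) and Dpysl3 in 1. Glial genes had 0 calls of 7 tested and motor and hindbrain neuron genes 0 of 13, among them the motor neuron factor Isl1 at 16.7 and 18.3 against 24.3 and 26.2 TPM (adjusted p = 0.3). In the proneural and Notch list 1 of 17 was higher, the receptor Notch2 (0.47, adjusted p = 0.033, limma). In the dorsoventral list Foxa2 was the 1 call of 16. The forebrain list had 1 call of 5, Otx2, which entered through Phc1-SAM KO alone. Neural crest genes had 2 of 11 higher, Twist1 (0.52, adjusted p = 0.036) and Erbb3 (0.46, adjusted p = 0.011). Notch2, Twist1 and Erbb3 passed in at most 1 fit without 1 library.

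Few genes of the Polycomb machinery were called in NPC. Of 29 PRC1 genes tested, 2 were higher and 0 lower, beside 3.05% and 1.8% of all genes. The list median was 0.04 against 0.05 over all genes tested. The higher ones were Scmh1, a SAM-domain partner of Phc proteins, at 49.3 and 52.8 against 38.4 and 33.5 TPM (0.50 ± 0.10, adjusted p = 0.037), and Fbrsl1, a subunit of a variant complex, at 93.9 and 99.2 against 80.8 and 79.3 TPM (0.27 ± 0.04, adjusted p = 0.013). The count of 2 fell to 0 with the NPC libraries alone in the fit and to 0 without the variance trend. Of 12 PRC2 genes, 3 were higher, beside 3.05% of all genes, and 0 lower. Beside Phf19 these were Aebp2, at 107.5 and 116 against 91.5 and 91.9 TPM (0.28 ± 0.05, adjusted p = 0.023), and Jarid2, at 119.3 and 123 against 105 and 100 TPM (0.24 ± 0.04, adjusted p = 0.026), both accessory subunits that help PRC2 bind chromatin. Rad21, the cohesin ring subunit, was the 1 call among 12 CTCF and cohesin genes, at 143 and 147 against 118 and 124 TPM (0.25 ± 0.04, adjusted p = 0.018). All 12 differences were positive, with a median of 0.20 against 0.05 over all genes tested. Without 1 library Scmh1, Aebp2 and Jarid2 never passed, and Fbrsl1 and Rad21 passed in 1 of 4 fits. DNA methylation genes had 2 of 11 higher, Tet1 (0.34) and Uhrf1 (0.16), and 1 lower, Dnmt3b, and none of the 3 passed in a fit without 1 library (adjusted p 0.11 to 0.21).

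Of 40 transcription factors of development that Polycomb complexes bind in ESC, 1 was higher and 4 lower, beside 3.05% and 1.8% of all genes, with a median of -0.02: Twist1 was higher, and Foxa2, Sox17, Gata4 and the hindlimb factor Pitx1 were lower, the last at 2.35 and 2.11 against 4.37 and 3.76 TPM (-0.65 ± 0.13, adjusted p = 0.045). Of these 4, Foxa2, Sox17 and Gata4 also belong to the endoderm list. Anterior Hox genes, which pattern hindbrain and neck, had 1 call of 15: Hoxb1, an early retinoic acid target, stood at 37.4 and 39.4 against 58.3 and 52.8 TPM (-0.52 ± 0.10, adjusted p = 0.038). The other 14 had differences of both signs.

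Posterior Hox genes, which pattern trunk and limb, had 2 of 20 higher and 2 lower. Hoxd13, at 1.19 and 1.51 against 3.44 and 3.99 TPM (-1.004 ± 0.13, adjusted p = 0.011), and Hoxb13, at 21.6 and 21.6 against 39.7 and 39.4 TPM (-0.84 ± 0.11, adjusted p = 0.01), were the lower ones. Hoxc6, at 20.5 and 17.5 against 9.98 and 10.6 TPM (0.83 ± 0.14, adjusted p = 0.027), and Hoxc8, at 13.3 and 13.9 against 9.35 and 8.78 TPM (0.53 ± 0.11, adjusted p = 0.049), were the higher ones. Apart from Hoxd13 in 1 fit, these 4 and Hoxb1 passed in none of the fits without 1 library, with adjusted p of up to 0.26, and neither did Pitx1 or Rarg, with up to 0.23. Retinoic acid response genes had 1 call of 20, the receptor Rarg, at 60.03 and 62.1 against 52.1 and 49.2 TPM (0.27 ± 0.05, adjusted p = 0.032). Iroquois genes had 0 calls of 5, with Irx1 at 12.3 and 13.1 against 7.95 and 9.17 TPM (adjusted p = 0.077).

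In the Wnt list 3 of 26 were higher and 3 lower, beside 3.05% and 1.8% of all genes. Sfrp1, a secreted Wnt antagonist, stood at 103 and 99.8 against 55.6 and 56.6 TPM (0.84 ± 0.07, adjusted p = 0.0022) and kept its call without any 1 library. Sfrp5, a related antagonist, went the other way, at 11.2 and 10.7 against 19.0 and 19.2 TPM (-0.75 ± 0.10, adjusted p = 0.011), as did the ligand Wnt6 (-0.84, adjusted p = 0.026), and the receptor Fzd1 was higher (0.67, adjusted p = 0.043). Of 16 FGF pathway genes, 2 were higher: Etv5, a transcription factor induced by FGF signalling, at 66.6 and 68.0 against 49.0 and 46.8 TPM (0.48 ± 0.04, adjusted p = 0.0033), and Spry1, a feedback inhibitor, at 33.0 and 33.5 against 21.3 and 22.7 TPM (0.58 ± 0.09, adjusted p = 0.021). Etv5 kept its call in every fit without 1 library, while Sfrp5, Wnt6, Fzd1 and Spry1 passed in none. In the BMP, TGF-beta and Hedgehog list 3 of 25 were higher and 1 lower. The lower one was Ihh, a Hedgehog ligand made by visceral endoderm and gut, at 1.77 and 1.31 against 4.601 and 4.94 TPM (-1.19 ± 0.17, adjusted p = 0.015), and Bmp5 (0.68), the Hedgehog co-receptor Boc (0.58) and the BMP target Id3 (0.36) were higher. Of these 4, Id3 passed in 1 fit without 1 library and the others in none.

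Among the growth control genes named here, Cdkn2a had the most stable difference. Cdkn2a, the Polycomb-silenced locus that encodes a pair of cell-cycle inhibitors, stood at 41.9 and 38.02 TPM in Phc1 KO NPC against 73.9 and 74.1 TPM in Phc1-SAM KO NPC (-0.88 ± 0.06, adjusted p = 0.0013) and passed in every fit without 1 library. In WT NPC it stood at 12.95 and 10.2 TPM, below both genotypes, and in ESC at 36.2 to 37.4 TPM in all 4 knock-out libraries. Of 7 Cdk inhibitors 3 were lower and 1 higher: Cdkn2b, its neighbour, at 8.66 and 8.15 against 13.2 and 14.2 TPM (-0.64 ± 0.12, adjusted p = 0.038), and Cdkn1a, a p53 target, at 84.7 and 88.4 against 111 and 109.7 TPM (-0.35 ± 0.04, adjusted p = 0.0052), were the other lower ones. Of 17 p53 targets 5 were lower and 1 higher, with a median of -0.14. Btg2, an antiproliferative gene, fell by 0.47 (adjusted p = 0.0065) and Perp, a desmosomal protein, by 0.39 (adjusted p = 0.015), and Gdf15 was higher by 0.53 (adjusted p = 0.043). Without 1 library at a time Cdkn1a passed in 3 of 4 fits and Btg2 in 2, and Cdkn2b, Perp and Gdf15 in none. The count of 5 dropped to 1 without either Phc1 KO replicate and to 4 and 3 without Phc1-SAM KO replicates 1 and 2.

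Of 29 cell-cycle genes, 4 were higher and 0 lower. Ccnd3, cyclin D3, stood at 243.3 and 243.9 against 184 and 184 TPM (0.41 ± 0.04, adjusted p = 0.0048), and the replication helicase subunits Mcm4, Mcm2 and Mcm6 were higher by 0.18 to 0.26. Without 1 library at a time Ccnd3 passed in 2 of 4 fits and the Mcm genes in none. Of 52 ribosomal protein genes, 20 were lower, beside 1.8% of all genes, and 0 higher, and 6 differences were positive. The median was -0.11, and the list sums were 99270 and 98790 TPM against 108600 and 107600 TPM. Rps14 stood at 2359 and 2356 against 2921 and 2879 TPM (-0.30 ± 0.02, adjusted p = 0.0016). These falls are small and the count moved with the settings, to 28 under median-of-ratios scaling, 4 under quantile normalization and 2 to 9 without 1 library. Genes of ribosomal proteins have many processed copies, so their levels may depend on how reads were shared among them, which was not tested.

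In metabolism, 4 of 24 glycolysis and hypoxia genes were higher and 0 lower, and Slc2a3, a neuronal-type glucose transporter, stood at 392 and 403 against 313 and 312 TPM (0.35 ± 0.03, adjusted p = 0.0031), kept without any 1 library. Cholesterol synthesis genes had 2 of 21 higher, and stress-response genes 3 of 19 higher, among them Slc7a5, an amino acid transporter (0.37, adjusted p = 0.0077). Without 1 library at a time Slc7a5 passed in 2 of 4 fits. Mitochondrially encoded genes had 0 calls of 13. Pecam1, an adhesion molecule of endothelium that ESC also express, was the 1 call of 9 blood and endothelium genes, at 35.2 and 37.3 against 19.9 and 20.3 TPM (0.82 ± 0.06, adjusted p = 0.0016), kept without any 1 library, while globin genes stood under 1 TPM in all 4 libraries. Of 12 fibroblast genes 2 were higher and 1 lower, of 15 mesoderm genes 1 was higher, of 13 germline genes 1 was higher, and the cardiac, 2-cell-like, protocadherin, Y-linked, Lin28 and X inactivation lists had 0 calls of 14, 14, 6, 3, 9 and 1.

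**Figure D4:**
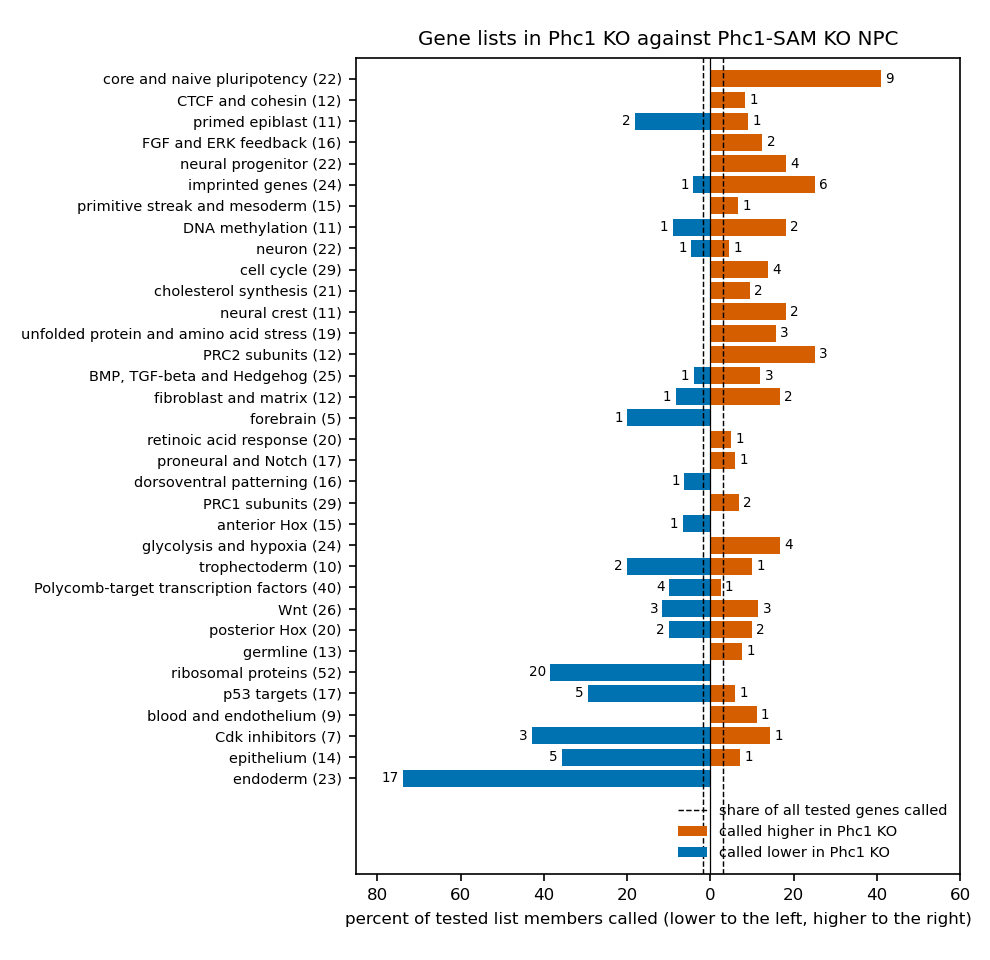
Percent of the tested members of each gene list called lower (blue, to the left) or higher (orange, to the right) in Phc1 KO against Phc1-SAM KO NPC, ordered by list median, with the number called beside each bar and the number tested in brackets; dashed lines mark 1.8% and 3.05% of all genes tested. Endoderm stands out on the lower side with 17 of 23 and pluripotency on the higher side with 9 of 22. The lists were chosen with earlier results of these data known, and those with 0 calls or under 5 tested genes are left out.

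The same genotypes differed far more as ESC. There 6948 of 14388 genes tested were called (48.3%), 33.9% higher and 14.4% lower in Phc1 KO, and 1416 differed by at least 2-fold. The split turned with the scaling, to 3216 higher and 4251 lower under median-of-ratios scaling and 2865 and 4015 under quantile normalization. Of the 713 NPC calls, 647 were tested in ESC: 242 were called there in the same direction, 229 in the opposite direction and 176 were not called. The 242 genes are 33.9% of the NPC calls and 3.48% of the ESC calls. Opposite directions occurred on both sides, for 147 of the 416 genes higher in NPC and 82 of the 231 lower in NPC that were tested in ESC.

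Fibroblast transcripts moved with the ESC contrast. All 18 tested genes of the fibroblast and matrix list were higher in Phc1 KO ESC, with a median of 3.04 on the log2 scale, and the list summed to 1694 and 1724 TPM there against 608 and 599.9 TPM in Phc1-SAM KO ESC. In NPC the sums were 564 and 581 against 561 and 566 TPM, and Col1a1 stood at 2.27 and 1.89 against 2.44 and 1.70 TPM. The part of these transcripts in the ESC contrast, and so in each difference between the stages, was not tested. S100a4, a mesenchymal calcium-binding protein, stood at 329 and 349 TPM in Phc1 KO ESC, at 11.0 and 10.6 TPM in Phc1-SAM KO ESC and was listed at 0 in all 4 NPC libraries.

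Differences between the stages were called for 5060 of 15615 genes (32.4%), with 10.8% more positive and 21.6% more negative in NPC. This split turned as well, to 3279 more positive and 2461 more negative under median-of-ratios scaling and 2613 and 2230 under quantile normalization. Prl2c2, a prolactin family hormone, had the most negative one among the genes named here: it was listed at 0 in both Phc1 KO NPC libraries and stood at 2.68 and 2.64 TPM in Phc1-SAM KO NPC, and at 170.1 and 178 TPM in Phc1 KO ESC against 4.33 and 3.87 TPM in Phc1-SAM KO ESC. Egr1, an immediate early gene, was among the most positive, at 9.53 and 10.1 against 5.99 and 5.43 TPM in NPC (0.69 ± 0.11, adjusted p = 0.022) and 6.38 and 5.74 against 12.6 and 14.7 TPM in ESC; its NPC call was lost in every fit without 1 library (adjusted p 0.074 to 0.17). Of the 14 largest rises in NPC, 11 were tested in ESC, where 9 were higher and 1 lower; Cxcl12 and Ptn, with ESC differences of 3.94 and 4.47, were among the higher ones. Of the 14 largest falls, 9 were tested in ESC, where 2 were higher and 2 lower, and for all 14 the contrast differed between the stages. These genes were chosen for their NPC difference, which is 1 term of the stage difference. Of all 713 NPC calls, 502 differed between the stages.

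**Figure D5:**
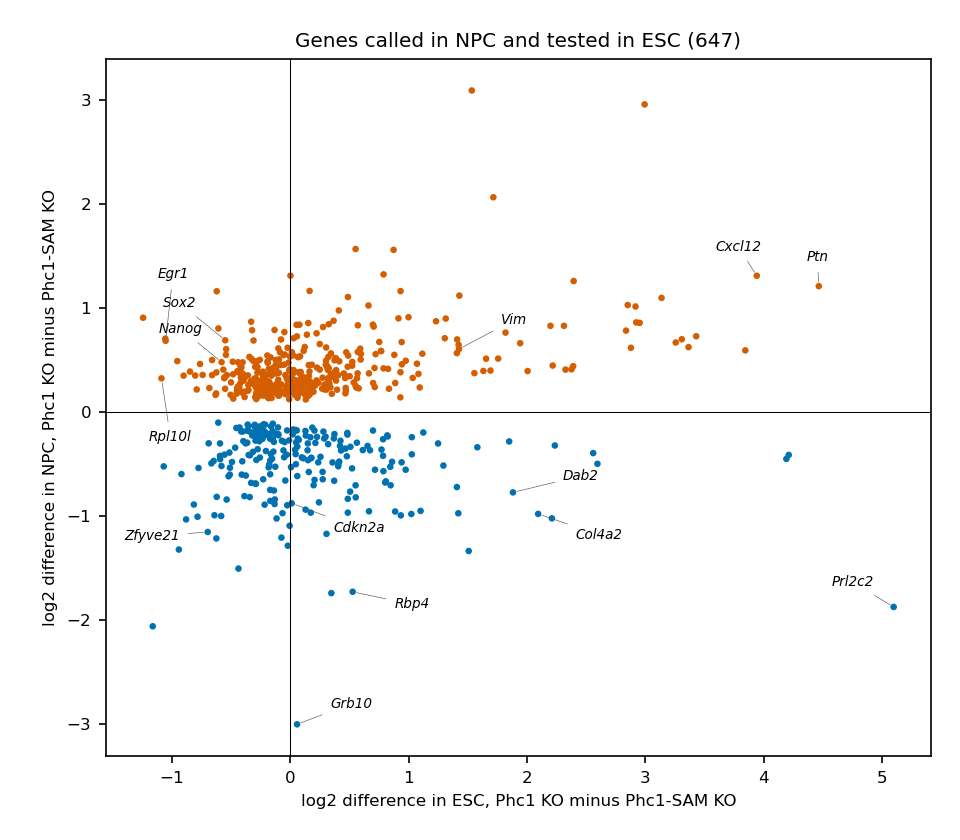
Log2 difference between Phc1 KO and Phc1-SAM KO in NPC (vertical) against that in ESC (horizontal) for the 647 genes called in NPC and tested in ESC; orange genes were higher and blue genes lower in Phc1 KO NPC. Grb10 lies far below 0 in NPC and near 0 in ESC, Nanog and Sox2 are higher in NPC and lower in ESC, and Cxcl12 and Ptn are higher in both.

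Set beside WT NPC as a description, the called genes did not place either genotype nearer WT throughout. Of 701 called genes listed in both tables, the Phc1 KO mean was nearer WT for 417 and the Phc1-SAM KO mean for 284. The same split was not counted over all genes tested, and the WT values were normalized separately. These counts therefore do not rank the genotypes. Both genotypes lay above WT for 347 genes and below it for 248, and WT lay between them for 106. That is 15.1% of these genes, against 8.05% of the 14342 genes tested that both tables list. Called genes were chosen for their gap between the genotypes, so these shares do not compare like sets. The part of that choice in the higher share was not tested. Among the 23 endoderm genes WT lay between the genotypes for 11, both lay above WT for 7 and both below for 5. Among the 14 largest falls Phc1 KO was nearer WT for 9, Cubn, Apoa1 and Srgn included, and Phc1-SAM KO for 5, Grb10 included.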

How the data were processed

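RNA-seq values of the 8 Phc1 KO and Phc1-SAM KO libraries (2 genotypes as ESC and as NPC, 2 libraries per group) were used. The authors deposited TPM per gene, and per the submitters' processing notes the tools of the study were kallisto, DESeq2, STAR, SAMtools, BWA, deepTools and MACS2 with build mm10; the sources used here give no role, version or annotation. The knock-out columns summed to 97.6% to 98.0% of the full TPM total. WT columns of the same table summed to 38.1% to 50.3% and were left out, since 21.5% of genes expressed in WT NPC in the other table were listed at 0 in them. WT levels come from that other table. TPM keep no read counts, so depth and counting error are unknown.

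From the deposited TPM, log2(TPM + 1) was taken and genes reaching 1 TPM in 2 or more of the 4 libraries of a contrast entered limma 3.58.1 under R 4.3.3 (lmFit, eBayes with trend, two-sided, 1 mean per group, spread shared by all 8 libraries), with Benjamini-Hochberg adjustment over all genes tested and a threshold of 0.05. The stage difference was tested as an interaction contrast of the same kind of fit. Fold changes on this scale understate changes of low genes. The procedure was tested on simulated data. Whether replicates came from separate cultures or lines is not stated, and p-values therefore reflect spread among libraries that may be technical.

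Named genes are Phc1 to Phc3; the 14 largest rises and falls among non-overlapping calls whose mean reached 5 TPM in 1 NPC genotype; up to 4 called members of each of 44 gene lists, or, for lists with no call, the 2 of highest level; and the 6 largest stage differences in each direction. Other names complete a count, check a label or are said to be chosen after seeing values. Predicted genes (61 of the calls) are not named. Members and lists were chosen with earlier results of these data known. Sequences and positions are RefSeq's, GRCm38.p6, matched by symbol. Alternatives changed the pseudocount, the filter, the scaling, the libraries in the fit, the variance trend and the replicate block, and left out each library in turn.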

Additional observations from a re-analysis of the deposited data

Results flagged for a closer look

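The contrast between Phc1 KO and Phc1-SAM KO differed between NPC and ESC for 93 of the 117 genes named above and tested for it (limma, interaction contrast, adjusted p under 0.05). Many were named for their calls in NPC or their large stage differences. That choice raised their share, so it is not to be read against the 32.4% of all genes. Each value below is the log2 difference in NPC minus that in ESC, and the part of the fibroblast transcripts of the Phc1 KO ESC libraries in them was not tested.

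More negative in NPC were the endoderm genes Col4a2 (-3.07), Apoa1 (-2.87), Dab2 (-2.65), Afp (-2.29), Cubn (-2.22), Col4a1 (-2.001), Lamb1 (-1.81), Ttr (-1.59), Apob (-1.34), Lama1 (-1.13), Apoc2 (-1.02), Sox17 (-0.97), Gata4 (-0.90), Sparc (-0.87), Hnf4a (-0.75) and Sox7 (-0.67). Outside that list, values below -1 were found for Prl2c2 (-6.97), S100a4 (-4.85), Col1a1 (-4.56), Ptn (-3.25), Grb10 (-3.06), Cxcl12 (-2.63), Rbp4 (-2.25), Ctsh (-2.09), Ccdc80 (-2.04), Tmem176b (-1.90), Tmem176a (-1.82), Irx1 (-1.74), Clic6 (-1.61), Cited1 (-1.48), Dpysl3 (-1.35), Ihh (-1.31), Srgn (-1.30), Fzd1 (-1.28), Crygd (-1.26), Cdh2 (-1.23), Twist1 (-1.14), Tspan11 (-1.13) and B4galnt2 (-1.08). Smaller negative values were found for Cdkn2b (-0.92), Cdkn2a (-0.89), Vim (-0.82), Cdkn1a (-0.81), Phc2 (-0.75), Cldn4 (-0.72), Hoxb1 (-0.65), Hoxb13 (-0.61), Notch2 (-0.60), Krt19 (-0.59), Sfrp5 (-0.58), Scmh1 (-0.48), Zfyve21 (-0.45), Krt18 (-0.40) and Slc2a3 (-0.15).

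More positive in NPC were the pluripotency genes Utf1 (1.23), Prdm14 (1.10), Nanog (1.06), Pou5f1 (0.77) and Klf2 (0.77). Other values above 1 were found for Tac2 (1.79), Egr1 (1.74), Cntn4 (1.27), Sox2 (1.24), Cdkn1c (1.24), Igf2 (1.17), Shisa3 (1.04), Tubb3 (1.01) and Socs2 (1.00). Smaller positive values were found for Etv5 (0.92), Hoxc8 (0.88), Sfrp1 (0.79), Pax6 (0.79), Phc1 (0.77), Kcnj2 (0.72), Bmp5 (0.71), Gdf15 (0.70), Tfap2c (0.68), Gata6 (0.66), Mcm2 (0.64), Rarg (0.57), Spry1 (0.56), Pecam1 (0.54), Mcm4 (0.54), Mest (0.52), Jarid2 (0.51), Fbrsl1 (0.51), Nes (0.48), Mcm6 (0.47), Rad21 (0.46), Uhrf1 (0.39), Ccnd3 (0.38), Erbb3 (0.30) and Aebp2 (0.26).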

How the results depend on the processing

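The 713 NPC calls became 364 with the 4 NPC libraries alone in the fit, 426 without the variance trend, and 75 to 189 without 1 library at a time; of the latter, 72 to 174 were among the 713. With the replicate number as a block there were 369, but the numbers did not pair the libraries (their deviations correlated at -0.037), so the block rests on a shared number. The other settings gave 513 to 887 calls. No called gene turned its sign, except 1 under quantile normalization. The endoderm count of 17 stood at 5 to 7 without 1 library and at 12 to 18 otherwise, and its median was negative throughout (-1.02 to -0.49). Total counts in ESC and between the stages stayed within 1.5-fold, but their splits by direction turned under both other scalings. Of 111 called named genes, 25 kept their calls without any 1 library and 58 in none of those fits. Among the named genes, signs turned for uncalled ones only. Under median-of-ratios scaling these were Phc1 (-0.026), Phc2 (-0.002), Phc3 (-0.01) and mt-Co1 (-0.011). Under quantile normalization they were Phc1 (-0.034), Phc2 (-0.029), Eif1a (-0.016) and mt-Co1 (0). Without 1 library they were Phc1 (-0.04 to 0.067), Phc3 (-0.07 to 0.12), Ddx3y (-0.062 to 0.046) and mt-Co1 (-0.057 to 0.115). The causes were not tested. TPM keep no counts, so what depth limits is unknown; 2 libraries per group limit every value.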

Other observations

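These values were singled out after they were seen. Zfyve21 lies in a run of 4 neighbouring genes on chromosome 12 that were all lower in Phc1 KO NPC. Klc1, a kinesin light chain, stood at 38.04 and 34.3 against 56.9 and 58.8 TPM (log2 difference -0.66, adjusted p = 0.0042, limma). Xrcc3, a DNA repair gene, stood at 10.5 and 10.7 against 17.2 and 16.9 TPM (-0.64, adjusted p = 0.025), and Ppp1r13b, a p53 regulator, at 8.02 and 8.40 against 15.4 and 15.0 TPM (-0.81, adjusted p = 0.0068). Some of these genes overlap in position, so reads may have been shared among them. In ESC, Klc1 was higher in Phc1 KO (0.81) and Zfyve21 and Ppp1r13b were lower (-0.70 and -0.62).

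Chromosome 6, which carries Phc1, had the highest share of calls, 8.05% of its 708 tested genes beside 4.85% of all genes. Of these genes, 47 were higher and 10 lower in Phc1 KO NPC, beside 3.05% and 1.8% of all genes. Its median difference of 0.05 lay within the 0.01 to 0.06 of all chromosomes. In ESC its share of calls was 51.3%, within the 43.3% to 55.8% of the other autosomes. A link to the edit of Phc1 was not tested. Among genes listed at 0 in both libraries of 1 genotype, 9 called genes were absent in Phc1-SAM KO, all with predicted or pseudogene names, and 2 in Phc1 KO, of which 1 was Prl2c2.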
